A study of Mus musculus with 9 samples.

Results

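Of the genes in the deposited table, 8 that mark cranial motor neurons, cholinergic neurons and dorsal hindbrain neurons were compared in midbrain RNA of Gpr161 mutant and control mouse fetuses. They were chosen by name for a check on the dissection. No rule on their values was used, but earlier results of these data were known. Phox2a, Isl1 and Isl2 are transcription factors of motor neurons. Chat, Slc18a3 and Slc5a7 make, load and recycle acetylcholine. Lbx1 and Tlx3 are transcription factors of dorsal hindbrain neurons. Of the 21596 rows with a gene name, 8 rows carried these names, and 7 of the 8 genes were among the 14029 genes that were abundant enough to test.

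The samples were midbrain tissues dissected on ice from C57BL/6 fetuses at E13.5, with 3 libraries in each of 3 groups. The floxed control was Gpr161f/f and carried no Cre. The Cre control was Gpr161f/+;Wnt1-Cre, and the cKO was Gpr161f/f;Wnt1-Cre, so all 9 libraries carried at least 1 floxed allele and both Cre groups carried the transgene. Wnt1-Cre drives recombination in the Wnt1 lineage, which includes the midbrain, the neural crest of the pharyngeal arches and cranial ganglia and, later, parts of the hindbrain, and the transgene itself is known to raise Wnt1. RNA was selected by poly-A, and the deposited table holds log2 values that were already normalized between libraries. No label states that a library came from a single fetus or a single litter, so p-values measure the spread between these libraries.

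The motor neurons of the midbrain are those of the oculomotor nucleus, which lies ventrally and moves the eye. Phox2a is needed for oculomotor and trochlear neurons to form, Isl1 and Isl2 are LIM homeodomain factors that act as motor neurons leave the cell cycle, and all motor neurons release acetylcholine. Isl1, Isl2 and Tlx3 are also used by cranial sensory neurons. Lbx1 specifies GABAergic and other interneurons of the dorsal hindbrain and spinal cord, and is not a gene of the midbrain proper, whereas Tlx3 selects the glutamatergic fate in dorsal hindbrain and spinal neurons. They were compared between genotypes, and between replicates of a genotype as a check on how alike the dissected pieces were.

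Facts of the whole table bear on every value below. Put back on a linear scale, the values of a library summed to between 26609942 and 27496648, and are given as cpm where a library is scaled to a sum of 1000000. The table holds no read counts, so the depth is unknown and no counting interval can be given. The spread between libraries shrank at low values, from a median SD within genotype of 0.0919 for genes that averaged 6 to 8 down to 0.0284 for genes that averaged 2 to 2.5, so that differences of weakly expressed genes are compressed. Gpr161 itself was not lower in the cKO, where it averaged 11.88 ± 0.123, beside 11.88 ± 0.0963 for the Cre control and 11.77 ± 0.0300 for the floxed control (log2, SD, n = 3). The table has 1 value per gene and cannot show a deleted exon, so this value is no check of the labels. The 12 pan-neuronal genes, fixed as a list of neurons of any type, summed to between 6647 and 7133 cpm for the floxed control. They summed to 5197 to 6308 for the Cre control and 4513 to 5106 for the cKO, without overlap between groups. By limma with an adjusted p under 0.05, 12 of 12 were lower in the cKO than in the floxed control, beside 18.8% of all genes tested. Against the Cre control 4 of 12 were lower, beside 4.85% of all genes. Without floxed control replicate 3 and Cre control replicate 2 together, 0 of 12 were lower against the Cre control, beside 0.549%. Between the controls 0 of 12 passed, but all 12 differences were negative in the Cre control, with a median of -0.22. All values are from bulk tissue, in which fewer cells of a type and less RNA per cell cannot be told apart.

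Of the 7 genes tested, 2 were lower in the cKO than in floxed controls and 0 were higher, by limma with an adjusted p under 0.05. Among all genes tested 38.3% passed this limit (18.8% lower and 19.5% higher), and the 2 of 7 are read against that background. Of the 2, Lbx1 and Slc18a3, the latter was abundant enough to test only through control libraries and lost its call in 5 of 9 fits that left out 1 library each. Lbx1 was the only one of the 7 that also had a fold change over 1.5 (a DEG in what follows), against 2.92% of all genes. None of the 7 passed in the cKO against the Cre control, where 9.72% of all genes did (4.85% lower, 4.86% higher, and 0.563% as DEGs), although 2 had an unadjusted p under 0.05. Between the 2 controls 0 of 7 passed and 3 had an unadjusted p under 0.05, with 0.057% of all genes passing (0.0499% higher in the Cre control, 0.00713% lower, and 0.0285% as DEGs). Against the floxed control all 7 log2 fold changes were negative, and their median was -0.23 beside 0.0112 over all genes tested, and against the Cre control 5 of 7 were negative, and their median was -0.0838 beside 0.0117. With each library centred on the median of its pan-neuronal genes, a scaling that moved the median of all genes to 0.498 against the floxed control, 6 of the 7 differences from the floxed control were positive and that of Lbx1 was -0.62. The 2 comparisons share the cKO libraries.

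**Figure D1:**
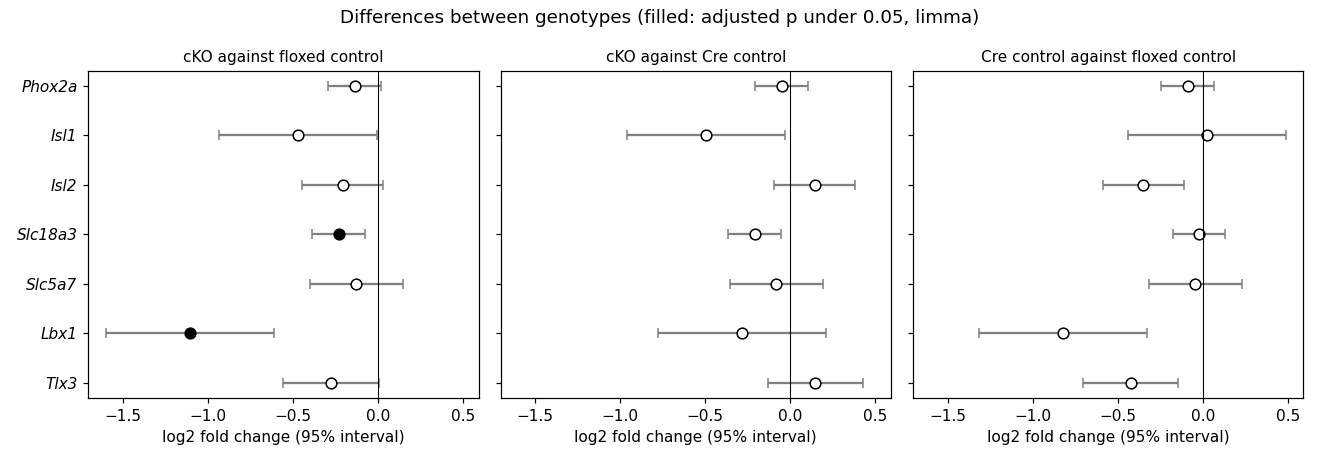
Log2 fold changes (horizontal axis) of the 7 genes tested in the 3 comparisons, with 95% intervals from limma; filled points have an adjusted p under 0.05. Lbx1 and Slc18a3 are filled in the cKO against the floxed control, and no point is filled in the other 2 panels.

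Phox2a, the factor most specific to the oculomotor and trochlear neurons, was weakly expressed and passed in none of the 3 comparisons. The gene (ENSMUSG00000007946.11) lies at chr7:101818313-101822726 on the plus strand of GRCm38. It measured 4.99, 4.89 and 5.10 in the 3 floxed control libraries, 4.84, 5.03 and 4.84 in the Cre control and 4.79, 4.87 and 4.90 in the cKO (log2). All 3 groups overlapped, and the 9 values spanned 4.79 to 5.10. The difference between cKO and the floxed control was -0.14 ± 0.0701 on the log2 scale (SE, limma adjusted p = 0.144, 95% interval -0.29 to 0.0178), and that from the Cre control was -0.0505 (adjusted p = 0.664, interval -0.21 to 0.11).

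Isl1 was the motor neuron factor with the highest level and the one that varied most between libraries of the same genotype. It lies at chr13:116298281-116309689 on the minus strand (ENSMUSG00000042258.13). The floxed control libraries were at 8.01, 8.34 and 8.71 and the Cre control libraries at 8.04, 8.32 and 8.77, while the cKO libraries were at 7.61, 8.02 and 8.02. Every cKO value lay below every Cre control value, a pattern found in 13.7% of all genes tested, but the highest cKO value was just above the lowest floxed value. The cKO differed from the floxed control by -0.47 ± 0.209 (SE, limma adjusted p = 0.0994) and from the Cre control by -0.49 (adjusted p = 0.149), and both controls had nearly the same mean, with a difference of 0.0223. The SDs of 0.347, 0.371 and 0.236 in the 3 genotypes were larger than those of at least 98.6% of the 1605 genes with a like mean, whose median SDs were between 0.0691 and 0.0869.

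The values for Isl1 turned on single libraries, in both directions. The difference from the floxed control was -0.64 (limma adjusted p = 0.0490) without floxed control replicate 1 and -0.30 (adjusted p = 0.318) without floxed control replicate 3. The difference from the Cre control was -0.66 (adjusted p = 0.0475) without Cre control replicate 1 and -0.30 (adjusted p = 0.401) without Cre control replicate 3. Without cKO replicate 1, the library with the lowest Isl1, the 2 differences were -0.34 (adjusted p = 0.297) and -0.36 (0.402). The adjusted p over all alternatives was between 0.00345 and 0.927 against the floxed control and between 0.0151 and 0.402 against the Cre control. In each genotype Isl1 was lowest in replicate 1 and highest in replicate 3. The lowest adjusted p of each comparison came from the limma fit with a block for replicate number, where Isl1 passed against both controls. The labels do not pair the libraries by that number.

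Isl2, which follows Isl1 in many motor neurons and is also used in sensory ganglia, was lowest in the Cre control. It lies at chr9:55538672-55546180 on the plus strand (ENSMUSG00000032318.12). Its values were 6.66, 6.79 and 7.17 in floxed control libraries, 6.56, 6.52 and 6.49 in Cre control libraries and 6.68, 6.71 and 6.62 in cKO libraries. The Cre control lay wholly below the other 2 groups, and replicate 3 of the floxed control lay alone at the top. All Cre control libraries below all floxed control libraries was a pattern of 12.1% of the genes tested. The Cre control differed from the floxed control by -0.35 ± 0.107 (SE, limma adjusted p = 0.187, unadjusted p = 0.00842), and the cKO differed from the floxed control by -0.21 (adjusted p = 0.150) and from the Cre control by 0.14 (adjusted p = 0.402). Without floxed control replicate 1 the difference of the cKO from the floxed control passed, at -0.31 (adjusted p = 0.0423, over all alternatives between 0.0423 and 0.982). Without floxed control replicate 3 it was -0.062 (adjusted p = 0.503). Compared with floxed control library 1 alone, the cKO difference of Isl2 was 0.00297 (adjusted p = 0.982).

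**Figure D2:**
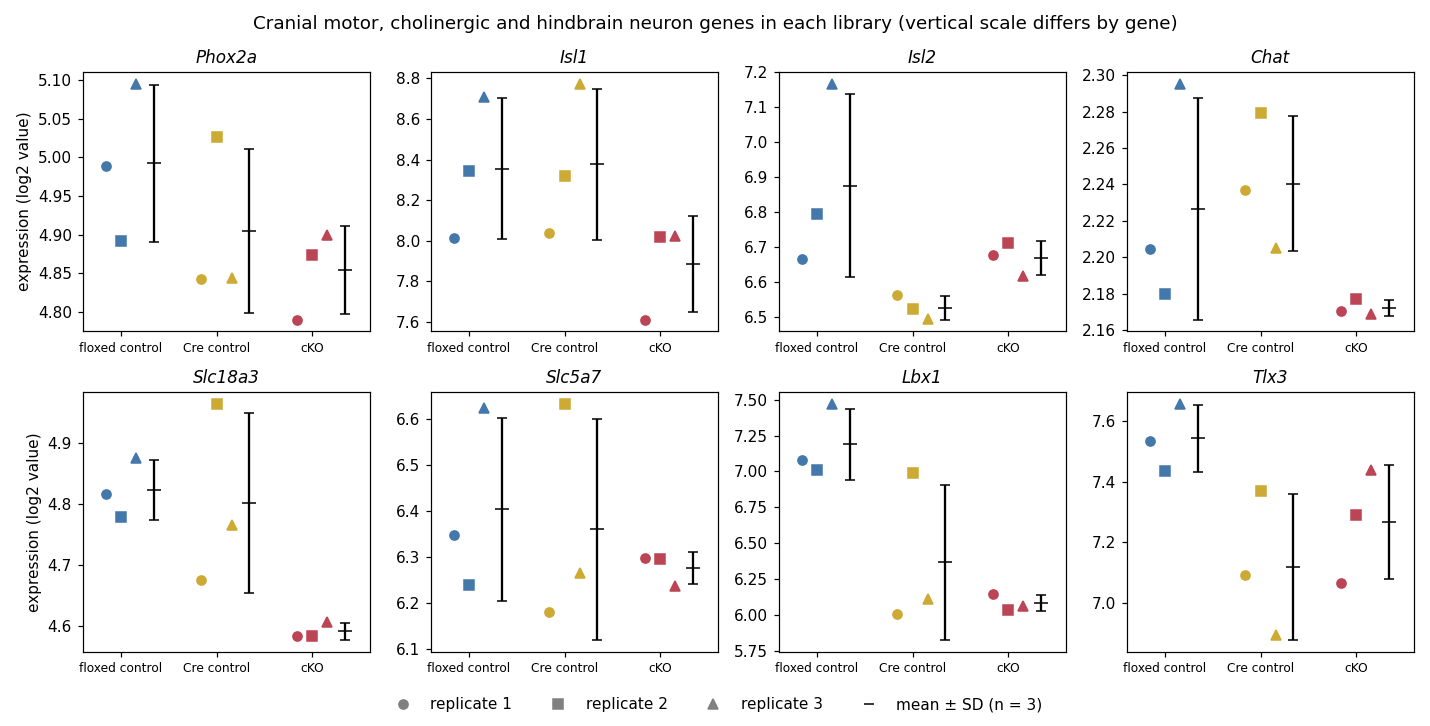
Log2 expression (vertical axis, scaled per gene) of the 8 genes in each of the 9 libraries, by genotype; symbols give the replicate, and bars the mean and SD of 3 libraries. Lbx1 stands at 7.01 to 7.47 in the floxed control, and Chat at 2.17 to 2.30 throughout.

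The cholinergic genes share a locus, which is shown here because it limits how far Chat and Slc18a3 can be read apart. Chat (ENSMUSG00000021919.8), choline acetyltransferase, occupies chr14:32408203-32465989 on the minus strand of GRCm38. Slc18a3 (ENSMUSG00000100241.1), the transporter that loads acetylcholine into vesicles, is a gene of a single exon at chr14:32462438-32464850 on the same strand, inside the intron of Chat at chr14:32460914-32465806. Of the 8 annotated Chat transcripts 4 span Slc18a3, and 0 have an exon that overlaps it. Reads from unspliced Chat RNA and from Slc18a3 could still not be told apart by position, so that the value of Slc18a3 is uncertain to that extent. The sequences just upstream of the 2 starts (RefSeq, GRCm38.p6, minus strand, 5′ to 3′) are given below with each E-box CANNTG in capitals, a motif bound by bHLH factors such as those of the proneural family. The Chat window is chr14:32465990-32466159 and the Slc18a3 window chr14:32464851-32465100, of which the distal 59 bases overlap an exon of Gm2990, a gene annotated on the opposite strand.
Chat: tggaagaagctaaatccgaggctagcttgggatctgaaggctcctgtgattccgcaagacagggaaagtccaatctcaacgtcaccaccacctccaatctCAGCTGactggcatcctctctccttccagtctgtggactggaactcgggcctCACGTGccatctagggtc
Slc18a3: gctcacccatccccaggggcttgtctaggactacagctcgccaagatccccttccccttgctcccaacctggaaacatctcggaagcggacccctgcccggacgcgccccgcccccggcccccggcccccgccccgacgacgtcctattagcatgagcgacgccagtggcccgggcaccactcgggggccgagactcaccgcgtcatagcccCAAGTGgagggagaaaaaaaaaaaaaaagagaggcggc
The Chat window of 170 bases held 2 E-boxes and the Slc18a3 window of 250 bases held 1, read on either strand since CANNTG is its own reverse complement. The Chat window is the shorter because the bases nearest the RefSeq start, which GENCODE places within Chat, were left out. In windows of 250 bases before the starts of all 32851 entries, 66.2% held at least 1 CANNTG. The GC content was 54.7% before Chat and 66.0% before Slc18a3, where GGGCGG, the core of a GC box, was found 2 times on either strand and in 32.7% of all windows. TAATTA, a core bound by many homeodomain factors, was found in neither, and in 4.84% of all windows. Of the 8 genes 7 had an entry in this table, and Lbx1 had none.

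Chat was the weakest of the 8 genes in every library. The floxed control was at 2.20, 2.18 and 2.30, the Cre control at 2.24, 2.28 and 2.21, and the cKO at 2.17, 2.18 and 2.17 (log2). No library reached 1 cpm, the limit for a test across genes, which lay between 4.73 and 4.78 on the log2 scale. All 3 cKO values lay below all 6 control values, which was the case for 3% of the genes under this limit. The means were 2.17 ± 0.0043 in the cKO (SD, n = 3) and 2.23 ± 0.0457 in the 6 control libraries, a difference of -0.0614 with p = 0.0476 in a two-sided exact permutation test over 84 partitions, of which the smallest possible p is 0.0119. Fitted by limma without a filter on low values, Chat had an adjusted p of 0.223 for the floxed and 0.209 for the Cre control.

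Slc18a3 was lower in the cKO by a small amount. It measured 4.82, 4.78 and 4.88 in the floxed control and 4.68, 4.96 and 4.76 in the Cre control, and 4.58, 4.58 and 4.61 in the cKO. The 3 cKO libraries lay below all 6 controls, as did 11.5% of all genes tested. Slc18a3 was tested only because 3 floxed control libraries and 1 Cre control library reached 1 cpm, while 0 cKO libraries did, so that its being tested and its being lower are not independent. The difference from the floxed control was -0.23 ± 0.0692 (SE, limma adjusted p = 0.0242), a level 1.17 times lower, and that from the Cre control was -0.21 ± 0.0692 (adjusted p = 0.0802). The call against the floxed control was lost without floxed control replicate 1 (adjusted p = 0.0561) or 3 (0.0842) and without cKO replicate 1 (0.0701), 2 (0.0645) or 3 (0.0533), and the values of the difference then lay between -0.24 and -0.21. Without Cre control replicate 1 the difference from the Cre control passed, at -0.27 (adjusted p = 0.0160). Without Cre control replicate 2 it was -0.13 (adjusted p = 0.181). Over all alternatives the adjusted p against the floxed control was between 0.00426 and 0.170.

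Slc5a7, the choline transporter that returns choline to the nerve ending, passed in none of the 3 comparisons. The gene (ENSMUSG00000023945.7) is at chr17:54273590-54299034 on the minus strand. Its floxed control libraries were at 6.35, 6.24 and 6.63, its Cre control libraries at 6.18, 6.63 and 6.27, and its cKO libraries at 6.30, 6.30 and 6.24. The cKO values sat inside the range of the Cre control and at the lower end of that of the floxed control. The highest libraries were replicate 3 of the floxed control and replicate 2 of the Cre control. The cKO differed by -0.13 from the floxed control (limma adjusted p = 0.437, 95% interval -0.40 to 0.15) and by -0.0838 from the Cre control (adjusted p = 0.681, interval -0.36 to 0.19). The value against the floxed control shrank to -0.0166 when floxed control replicate 3 was left out (adjusted p = 0.932).

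Lbx1 showed the largest difference of the 8 genes between the cKO and floxed controls. It lies at chr19:45232684-45235812 on the minus strand (ENSMUSG00000025216.9). The floxed control was at 7.08, 7.01 and 7.47, the Cre control at 6.01, 6.99 and 6.11, and the cKO at 6.15, 6.04 and 6.06. All cKO and all Cre control values were below all floxed control values (27.3% and 12.1% of genes tested show this), with replicate 2 of the Cre control only just below. Lbx1 was lower in the cKO than in the floxed control by 2.15-fold, a log2 difference of -1.11 ± 0.222 (SE, limma adjusted p = 0.00411). The cKO differed from the Cre control by only -0.29 ± 0.222 (adjusted p = 0.416, 95% interval -0.78 to 0.21), and the Cre control from the floxed control by -0.82 (adjusted p = 0.164, unadjusted p = 0.00407).

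The Cre control replicate 2 decided how Lbx1 fell between the groups. Without it, the cKO differed from the Cre control by 0.0240 (limma adjusted p = 0.921) and the Cre control from the floxed control by -1.13 (adjusted p = 0.0264, over all alternatives between 0.00459 and 0.560). Each library left out in turn kept the call of Lbx1 in the cKO against the floxed control, with differences between -1.19 and -0.96. Against floxed control library 1 alone the difference was -0.998 with an adjusted p of 0.0707, since a single library then stood for its group and was assumed to vary like the others.

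Tlx3, the second dorsal hindbrain factor, was also highest in the floxed control. It lies at chr11:33200752-33203589 on the minus strand (ENSMUSG00000040610.7). It measured 7.54, 7.44 and 7.66 in floxed control libraries, 7.09, 7.37 and 6.89 in Cre control libraries and 7.07, 7.29 and 7.44 in cKO libraries. The Cre control was wholly below the floxed control, and the highest cKO library, replicate 3, reached the lowest of the floxed control. The Cre control differed from the floxed control by -0.42 ± 0.126 (SE, limma adjusted p = 0.181, unadjusted p = 0.00722), and the cKO differed from the floxed control by -0.28 (adjusted p = 0.109) and from the Cre control by 0.15 (adjusted p = 0.467). With 1 library left out at a time, these differences ranged from -0.36 (without cKO replicate 3) to -0.18 (without cKO replicate 1) and from 0.0346 (without Cre control replicate 3) to 0.27 (without Cre control replicate 2), and none of them passed.

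Per kilobase of the longest annotated transcript, the order of the 8 genes in the floxed control ran from Isl1, at 4.90 ± 1.15 cpm (SD, n = 3), and Tlx3, at 4.5 ± 0.315, through Isl2, at 2.36 ± 0.426, and Lbx1, at 2.19 ± 0.375. Isl1 and Tlx3, and likewise Isl2 and Lbx1, did not differ beyond their spread. Phox2a followed at 0.732 ± 0.0467, Slc5a7 at 0.607 ± 0.0816, Slc18a3 at 0.433 ± 0.0117 and Chat at 0.0605 ± 0.00216. In the cKO, Lbx1 was at 0.998 ± 0.0410, below Isl2 at 2.01 ± 0.0751 by more than their spread, and Tlx3 at 3.69 ± 0.46 and Isl1 at 3.46 ± 0.530 still overlapped. This order assumes that the deposited values were not already divided by length, which the sources used here do not state.

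As a check on the dissection, each library was compared with the mean of its own genotype. Replicate 3 of the floxed control was the highest floxed library for 8 of the 8 genes, beside 38.8% of all genes tested, with a median deviation of 0.168 (log2). Replicate 2 of the Cre control was the highest of its group for 6 of 8, beside 31.3% of all genes, with a median deviation of 0.142. In the cKO the highest values of the 8 genes were spread over the replicates, with 2, 2 and 4 genes. Its replicate 1 was nevertheless the lowest of its group for 12 of 12 pan-neuronal genes, beside 39.9% of all genes tested. Likewise, replicate 1 of the Cre control was lowest for 12 of 12, beside 45.5%. In the floxed control, replicate 1 was lowest for 3 of the 12 and replicate 2 for 9, beside 34.3% and 41.4%. The part of this in the values of the 8 genes was not tested. The cKO libraries were the most alike for some of the genes, with SDs of 0.0135 for Slc18a3, 0.0349 for Slc5a7 and 0.0563 for Lbx1, where the Cre control had 0.147, 0.240 and 0.540. For Tlx3 the cKO SD of 0.188 was above the 0.111 of the floxed control. For Isl2 it was 0.0478, above the 0.0339 of the Cre control. Within the cKO, the SDs of Isl1 (0.236) and Tlx3 were larger than those of 98.8% and 95.8% of genes with a like mean.

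**Figure D3:**
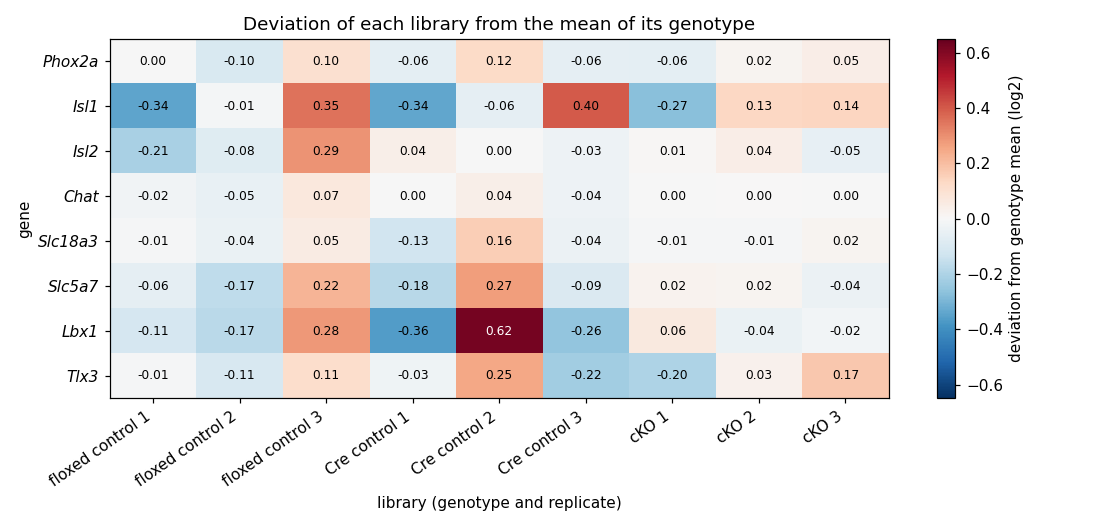
Deviation of each library (columns) from the mean of its genotype for each gene (rows), in log2 units, coloured from blue (lower) to red (higher). The column of floxed control 3 is positive for all 8 genes, and Lbx1 in Cre control 2 reaches 0.62.

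Genes of hindbrain position were highest in the same libraries. Of 12 genes of the list, anterior Hox genes and rhombomere factors, 6 were abundant enough to test. Replicate 3 of the floxed control was highest in its group for 6 of 6 and replicate 2 of the Cre control for 5 of 6, beside 38.8% and 31.3% of all genes tested. Hoxa2, which patterns the second branchial arch and its rhombomeres, measured 6.48, 6.50 and 6.88 in floxed control libraries, 5.58, 6.13 and 5.53 in Cre control libraries and 5.82, 5.80 and 5.68 in cKO libraries. Hoxb3, a gene of the more caudal rhombomeres, was at 5.46, 6.11 and 6.79 in the floxed control and between 5.04 and 5.31 in the other 6 libraries. Among the defining genes at the bottom of the range, Egr2 lay between 2.10 and 2.17, Hoxa4 between 1.47 and 1.54 and Hoxb4 between 2.43 and 2.5 in all 9 libraries. The summed level of the 12 genes was 25.0 to 38.4 cpm for the floxed control, 20.8 to 25.6 for the Cre control and 23.3 to 23.8 for the cKO. Against the floxed control 3 of 6 were lower in the cKO (Hoxa2 by -0.85, Hoxb2 by -0.89 and Hoxb3 by -0.93, with limma adjusted p of 0.00273, 0.0132 and 0.0168) and 1 was higher, beside 18.8% and 19.5% of all genes. Against the Cre control 0 of 6 passed, beside 9.72%. With floxed control library 1 alone 0 of 6 passed, but the share of all genes that passed also fell, from 38.3% to 15% (6.59% lower and 8.4% higher). The part of these levels in the result for Lbx1 was not tested.

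Among genes of cranial sensory ganglia, floxed control replicates 2 and 3 were each the highest of their group for 3 of 7 (42.9%), beside 29.3% and 38.8% of all genes tested. P2rx3, an ATP-gated channel of nociceptors, was at 6.67, 7.24 and 7.58 in the floxed control and at 6.63 to 6.81 elsewhere, and Prph, an intermediate filament of peripheral sensory and motor neurons, was at 8.15, 8.67 and 9.0 and at 7.67 to 8.03 elsewhere. Of the list of 11 sensory ganglion genes 10 were found in the table by the listed symbol and 7 were tested. The other, Drgx, is in the table under its older symbol Prrxl1 and was counted with the dorsal hindbrain genes. Of the 7, 4 were lower in the cKO against the floxed control (Avil, Prdm12 and Pou4f2 among them), beside 18.8% of all genes. Against the Cre control 2 were lower (Prdm12 and Pou4f2), beside 4.85%. Pou4f2 and Prdm12 are also expressed in the midbrain. Trpv1 was at 2.03 to 2.17 throughout. Runx3, at 3.37 to 3.53, and Scn10a, at 3.95 to 4.75, were also too weak to test. The summed level of the 10 genes was 50.1 to 56.7 cpm for the floxed control, 47.5 to 51.2 for the Cre control and 39.9 to 41.2 for the cKO. With floxed control library 1 alone, 2 of the 7 were lower (6.59% of all genes). Isl2 too had its highest 2 values in floxed control replicates 2 and 3, and the part of the ganglion genes in its values was not tested.

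**Figure D4:**
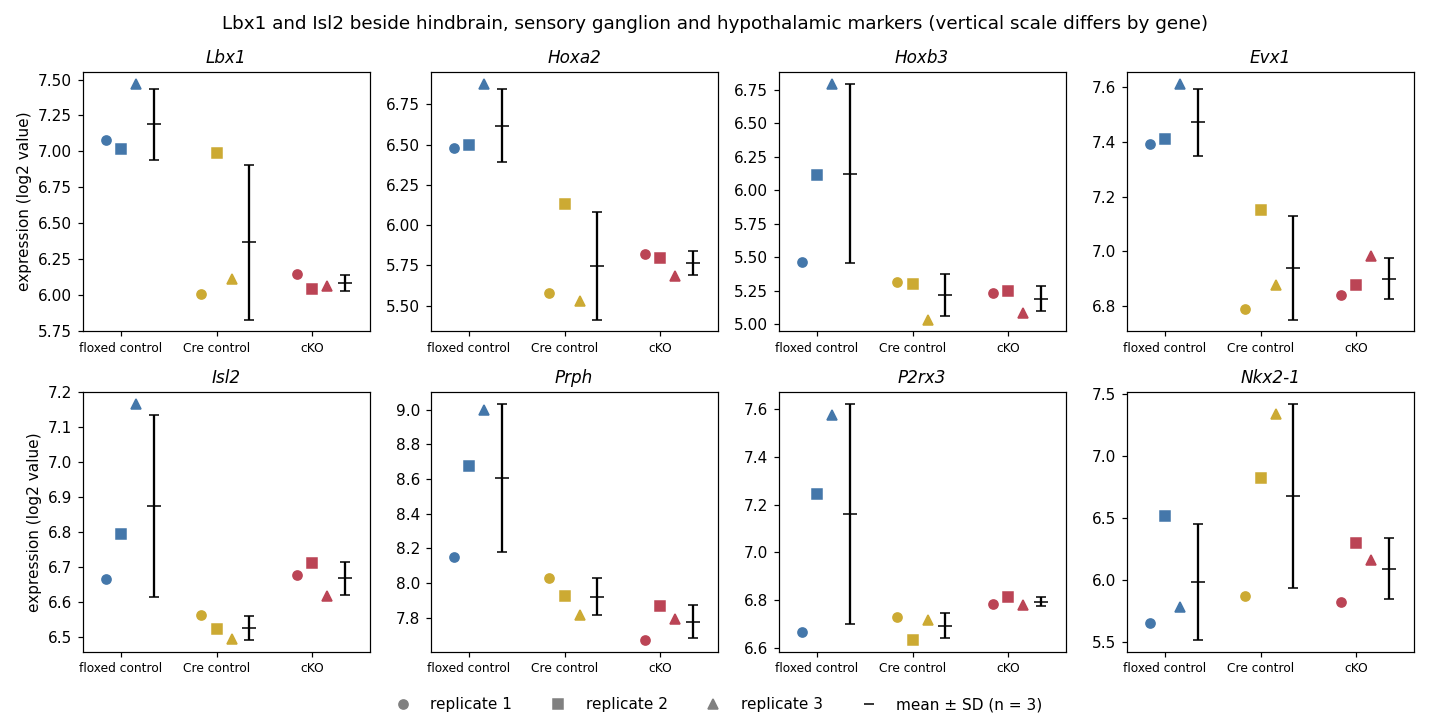
Log2 expression (vertical axis, scaled per gene) of Lbx1 and Isl2 beside hindbrain (Hoxa2, Hoxb3, Evx1), peripheral (Prph, P2rx3) and hypothalamic (Nkx2-1) markers in each library, with mean and SD of 3 libraries. P2rx3 reaches 7.24 and 7.58 in floxed control replicates 2 and 3 and no more than 6.81 in any other library.

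Other tissues near the dissection were distributed differently. Of the forebrain list 6 of 8 genes were tested and 0 passed in any comparison. Replicate 3 of the Cre control was nevertheless highest in its group for 5 of 6, beside 32.0% of all genes tested. Dlx1, a factor of forebrain GABAergic neurons, was at 5.33, 6.69 and 7.75 in the Cre control and between 5.26 and 5.76 in the other 6 libraries. Nkx2-1, a factor of the ventral forebrain, was at 5.87, 6.82 and 7.33 in the Cre control. Retina and pituitary genes, which were listed because these tissues use Isl1, summed to 11.9 to 14.3 cpm over all libraries. Of these, 2 of 9 were tested and 1 was lower in the cKO against the floxed control, beside 18.8% of all genes. Muscle genes summed to 4.18 to 4.57 cpm, with 1 of 9 tested and 0 passing. The muscle determination genes Myod1 and Myog were at 0.68 to 0.74 and 1.24 to 1.30, while the contractile genes Mylpf and Tnnt3 were at 5.61 to 5.86 and 4.63 to 4.85. The list of midbrain identity was present in every library, with En1 between 10.50 and 10.97 and Otx2 between 11.28 and 11.58, and 4 of 12 (Meis2, Pax2, Pax3 and Pax7) were lower and 1 (Pax5) higher in the cKO than in the floxed control (18.8% and 19.5% of all genes), with 0 lower and Pax5 higher against the Cre control.

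Of 12 genes of cranial motor neurons, which include Phox2a, Isl1 and Isl2, 10 were tested, and 6 were lower and 0 higher in the cKO than in floxed controls, beside 18.8% of all genes, and the median was -0.32. Among them were Prph (-0.83, limma adjusted p = 0.00448), the transporter gene Slc10a4 (-0.41, 0.00989) and the LIM factor Lhx4 (-0.28, 0.0248), with Ret, a receptor for glial cell line-derived factors, and Tbx20. Lhx4 was the 1 gene of 10 that was lower against the Cre control too, by -0.41 (adjusted p = 0.0213), beside 4.85% of all genes. Mnx1, which marks somatic motor neurons outside the oculomotor nucleus, was at -0.20 to -0.18 in all 9 libraries, and Lhx3 at 2.88 to 3.10. Against floxed control library 1 alone 2 of the 10 were lower (6.59% of all genes), and without floxed control replicate 3 and Cre control replicate 2 together, 3 of the 10 (12.1%).

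Acetylcholine genes beyond Chat, Slc18a3 and Slc5a7 passed in both directions. Of the other 7 listed, 5 were tested, and 2 (Ache and Slc10a4) were lower and 1 (Slc44a1) higher in the cKO against floxed controls, beside 18.8% and 19.5% of all genes, with a median of -0.0337. Ache, acetylcholinesterase, was at 7.93, 8.02 and 7.94 in floxed control libraries, 7.74, 7.96 and 7.92 in Cre control libraries and 7.44, 7.66 and 7.65 in cKO libraries. The cKO was wholly below both controls, as for 11.5% of all genes tested, with differences of -0.38 (limma adjusted p = 0.00489) and -0.29 (adjusted p = 0.0490). Slc44a1, a general choline transporter, was higher against the floxed control by 0.15 (adjusted p = 0.0418). Ache was the 1 of 5 that passed against the Cre control, where 4.85% of all genes were lower. That call was lost without floxed control replicate 3 and Cre control replicate 2 together. Lhx8, a factor of forebrain cholinergic neurons, and Colq, the collagen tail of acetylcholinesterase, were at 2.15 to 2.24 in all libraries, as low as Chat. The summed level of all 10 genes was 64.9 to 67.8 cpm in the cKO, 65.6 to 69.1 in the floxed control and 68.8 to 71.8 in the Cre control. Against floxed control library 1 alone 0 of the 5 were lower and 1 higher, at a setting where 6.59% and 8.4% of all genes were.

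All 13 dorsal hindbrain genes were tested, and 7 were lower and 1 higher in the cKO than in floxed controls (18.8% and 19.5% of all genes, median -0.32), whereas 1 was lower and 1 higher when the Cre control was the reference (4.85% and 4.86%, median -0.0388). Beside Lbx1, Evx2 and Evx1, factors of V0 interneurons, were lower against the floxed control by -0.62 and -0.57 (limma adjusted p of 0.00137 and 0.00204). Evx1 differed from the Cre control by -0.0388 (adjusted p = 0.819). Barhl1, which follows Atoh1 in rhombic lip neurons and is also a gene of the diencephalon and midbrain, was lower against both controls, by -0.52 and -0.51 (adjusted p of 0.00226 and 0.0137), at 10.55, 10.44 and 10.45 in floxed control libraries, 10.29, 10.44 and 10.67 in Cre control libraries and 10.01, 10.04 and 9.83 in cKO libraries. Olig3, a factor of dorsal progenitors, was higher against both, by 0.31 (adjusted p = 0.0329) and 0.65 (adjusted p = 0.00814). Replicate 3 of the floxed control was the highest of its group for 9 of 13 and replicate 2 of the Cre control for 11 of 13, beside 38.8% and 31.3% of all genes tested. With floxed control library 1 alone 4 of 13 were lower and 0 higher (6.59% and 8.4% of all genes). Between the 2 controls 0 genes of any of these lists passed.

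The genes whose values were most like each gene over the 9 libraries were found by the root mean square difference between log2 values centred on each gene's mean. For Lbx1 these were Hoxa2 at 0.173, Slc6a5, the glycine transporter of inhibitory neurons, at 0.181 and Skor1 at 0.194. Slc6a5 was at 6.44, 6.38 and 6.82 in floxed control libraries, 5.76, 6.15 and 5.77 in Cre control libraries and 5.70, 5.55 and 5.72 in cKO libraries, with the same Cre control library on top as for Lbx1. For Isl2 they were Prrxl1 (the listed ganglion gene Drgx) at 0.0881, Tlx1 at 0.0893 and Abcg5 at 0.103. For Tlx3 they were Anks1 at 0.108, Nkx1-1 at 0.111 and Robo3 at 0.117. Isl1 was nearest to Ptprt at 0.178, Rims2 at 0.193 and Grin2d at 0.194. The genes that varied little had nearer neighbours, led by Frs2 at 0.0395 for Phox2a, Sorcs1 at 0.0435 for Slc18a3 and Tshz3 at 0.0823 for Slc5a7. Among the 7 genes the nearest pair was Phox2a and Slc18a3 at 0.0785, Phox2a was number 7 among all genes in likeness to Slc5a7, at 0.0919, and Lbx1 was at least 0.399 from each of the others.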

How the data were processed

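RNA of 9 midbrain libraries, 3 per genotype, was measured. The authors deposited 1 table of log2 values, whose scale between libraries had been set and whose low values had been drawn together, as the values themselves show. The submitters' processing notes list FastQC 0.10.1, kallisto 0.46.1, DESeq2 and mm10 with no roles, and the transformation and the annotation are not given in the sources used here. Columns were matched to samples by the descriptions in the labels. The depth is unknown, and the number of libraries limits the precision.

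Of the 27360 rows, 5764 carry no gene name. Named genes with at least 1 cpm (linear values scaled to a sum of 1000000) in at least 3 libraries were kept, and 118 repeated rows dropped. All 9 libraries were fitted with a mean for each genotype by limma 3.58.1 (lmFit, contrasts.fit, eBayes with a trend) and statmod 1.5.0 in R 4.3.3, with two-sided tests and Benjamini-Hochberg adjustment over the 14029 genes, and tested on simulated data. Passing was an adjusted p under 0.05, and a DEG also had a fold change over 1.5. Chat was under the filter and was compared by an exact permutation test of the cKO against the 6 controls, since 3 libraries against 3 cannot go below 0.1. Positions are from the GENCODE annotation of GRCm38, the same assembly as mm10, and promoters from RefSeq.

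The 8 genes and the lists were chosen with earlier results of these data known. Named were the 8 genes, of each list its defining genes and up to 4 genes with the smallest adjusted p against the floxed control, and, for genes with an SD over the libraries above the median, the 3 genes of most like pattern. Hoxb3, P2rx3, Dlx1, Nkx2-1, Mylpf, Tnnt3 and the genes at the floor were described per library after their values were seen. Alternatives changed the filter, scaling, spread model, replicate block and libraries; floxed control library 1 alone, and the omission of floxed control replicate 3 with Cre control replicate 2, were chosen after seeing the data. Lists were described by counts and medians only. The values of some genes are not reported here.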

Additional observations from a re-analysis of the deposited data

How the results depend on the processing

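The replicate numbers do not pair the libraries by the labels, and same-numbered libraries had correlations of their deviations from the genotype means between -0.0272 and 0.26, over 0.1 in 5 of 9 pairs. As a hint from the data, 7 of 9 libraries correlated best with their own number. With the replicate block, Isl1 passed against the floxed control (adjusted p = 0.00345) and against the Cre control (0.0151), so that 1 gene rather than 0 of the 7 passed against the Cre control. The block changed no other call among the 7 genes.

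Centring each library on the median of the pan-neuronal genes moved the median of all genes to 0.498, 0.296 and 0.202 in the cKO against the floxed control, the cKO against the Cre control and the Cre control against the floxed control, and 12553, 9464 and 153 genes then passed in place of 5380, 1363 and 8. The differences of 6 genes from the floxed control turned positive, with 0.0158 for Isl1, 0.28 for Isl2, 0.349 for Phox2a, 0.255 for Slc18a3, 0.36 for Slc5a7 and 0.21 for Tlx3, all at or below that shift in the median. The difference from the Cre control turned positive for Phox2a (0.233), Slc18a3 (0.0735) and Slc5a7 (0.200), and that between the controls for Phox2a (0.116), Slc18a3 (0.182) and Slc5a7 (0.16). Of the 7 genes 4 and 2 then passed against the floxed and the Cre control. For Lbx1 the cKO then differed by -0.62 from floxed and by only -0.00237 from Cre controls, and the controls differed by -0.62.

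Without the 2 libraries highest for these genes, floxed control replicate 3 and Cre control replicate 2, the difference of the cKO from the Cre control was 0.0240 for Lbx1, 0.0107 for Phox2a and 0.0526 for Slc5a7, 1 gene (Lbx1) passed between the controls, and 3580, 225 and 3 genes of all passed. Against floxed control library 1 alone, 0 of the 7 passed, Isl2 differed by 0.00297, Slc5a7 differed by 0.0126 between the controls, and 2103, 437 and 1 genes of all passed. With at least 5 cpm, only Isl1 and Tlx3 of the 7 were still tested and 0 passed. Without a filter 873 genes passed against the Cre control and 5 between the controls, with the libraries of the 2 groups only 437 and 3, and without a trend 13 between the controls. The cause was not tested.

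Leaving out each library in turn, between 1 and 3 of the 7 genes passed against the floxed control, 0 to 2 against the Cre control and 0 to 1 between the controls, and of all genes 3606 to 6552, 237 to 3292 and 1 to 57. The difference between the controls ranged from -0.176 to 0.198 for Isl1, -0.103 to 0.0412 for Slc18a3 and -0.18 to 0.0671 for Slc5a7, and that of the cKO from the Cre control from -0.467 to 0.0240 for Lbx1, -0.0815 to 0.0107 for Phox2a and -0.173 to 0.0526 for Slc5a7. Differences of the weak genes Chat and Slc18a3 are limited by the compressed scale.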

Other observations

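Of 12 genes of ventral midbrain neurons, which lie beside the oculomotor nucleus, 4 were lower and 1 higher in the cKO against each control, the same 5 genes both times, where 18.8% and 19.5% of all genes passed with floxed controls as reference and 4.85% and 4.86% with Cre controls. The 2 comparisons share the cKO libraries. Th, the rate-limiting enzyme of dopamine synthesis, was at 8.31, 8.33 and 8.35 in the floxed control, 8.11, 8.38 and 8.44 in the Cre control and 7.68, 8.03 and 7.88 in the cKO, with differences of -0.47 (limma adjusted p = 0.00557) and -0.45 (adjusted p = 0.0273). Pitx3, a factor of these neurons, differed by -0.52 (adjusted p = 0.00210) and -0.40 (adjusted p = 0.0265), and Slc6a3, the dopamine transporter, by -0.31 and -0.37. Pou4f1, a factor of the red nucleus and tectum, differed by -0.60 and -0.61, and Nkx6-1, a ventral progenitor factor, was higher by 0.36 and 0.34. Without floxed control replicate 3 and Cre control replicate 2 together, 1 of 12 was lower and 1 higher against the Cre control (0.549% and 1.05% of all genes). At that setting 4 were lower and 1 higher against the floxed control (12.1% and 13.4%). Against floxed control library 1 alone 3 of 12 were lower and 1 higher (6.59% and 8.4% of all genes).

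Of the serotonergic and noradrenergic genes of the rostral hindbrain, 8 of 9 were tested, and 4 were lower and 1 higher against the floxed control (18.8% and 19.5% of all genes). Slc6a4, the serotonin transporter, differed by -0.34 (limma adjusted p = 0.0144) and Tph2, which makes serotonin in neurons, by -0.29 (adjusted p = 0.0245), while against the Cre control they differed by -0.16 (0.249) and -0.0637 (0.656). Gata2, which also marks midbrain GABAergic neurons, was higher against both controls, by 0.24 (adjusted p = 0.00525) and 0.26 (adjusted p = 0.0177). Fev, the factor that defines serotonergic neurons, was between 6.75 and 7.03 in all 9 libraries. When floxed control library 1 stood alone, 1 of the 8 was lower and 1 higher (6.59% and 8.4% of all genes). Of 9 neural progenitor genes 6 were higher and 0 lower than in floxed controls, and 3 and 0 than in Cre controls, beside 19.5% and 4.86% of all genes higher. Nes, an intermediate filament of progenitors, was higher by 0.50 and 0.45.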
